A study of Homo sapiens with 4 samples.

Results

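The genes described here are ESR1, which encodes estrogen receptor alpha, and 8 genes whose products work with it on chromatin: FOXA1, GATA3, NCOA1, NCOA2, NCOA3, NRIP1, NCOR1 and TLE3. They were chosen by symbol, with earlier results of these data known. All 9 were found in the feature lists of both libraries, which hold 33540 features for Ishikawa and 33538 for T-47D. Single-cell RNA-seq had been carried out on Ishikawa, a human endometrial adenocarcinoma line, and on T-47D, a human breast ductal carcinoma line. Both lines had been held in hormone-depleted medium before treatment, so that the 0 h cells, which received DMSO vehicle, and the treated cells share that depletion. Treated cells received 10 nM of 17β-estradiol (E2) for 2, 4 or 8 h. There was 1 culture per line and time point, the cultures of a line were tagged with lipid-anchored barcodes (MULTI-seq) and mixed into 1 gene expression library, and the Ishikawa library carries UMIs of GFP and tdTomato reporters.

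Estrogen receptor alpha is a nuclear receptor that binds E2, moves onto estrogen response elements, most of them in distal enhancers, and changes transcription of nearby genes. FOXA1 and, in mammary cells, GATA3 open or hold open the chromatin at many of those enhancers. Once hormone is bound, the receptor exchanges corepressors such as the NCOR1 complex for coactivators of the p160 family, NCOA1, NCOA2 and NCOA3, which bring in acetyltransferases, whereas NRIP1 (also called RIP140) is a ligand-dependent corepressor that is itself known as an estrogen target in breast cells.

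Of 9077 Ishikawa cells called to a single time point, 4613 passed the limits of the study on UMIs, genes and mitochondrial share, and the share that passed was 38.2% at 0 h and 52.4% to 55.8% at the later times. All 4626 called T-47D cells passed. Whether the deposited T-47D calls had already been limited to such cells was not examined, so the shares that passed are not compared between the lines. The pools, that is the summed UMIs of the cells of 1 line and time point, held from 15305038 to 30994433 UMIs for Ishikawa and from 12927799 to 33175309 for T-47D, where the 8 h pool of 553 cells was the smallest. Epithelial markers were abundant in both lines. Of 7 mammary luminal markers, 6 reached a mean of 10 CPM, the UMIs of a gene scaled to 1000000 UMIs of its pool, in T-47D and 1 did in Ishikawa, and of 7 endometrial or Müllerian markers 5 did in Ishikawa and 0 in T-47D, where PAX8, SOX17, EMX2 and HOXA10 were listed at 0. The summed level of 4 immune markers was at most 2.48 CPM and that of 3 endothelial markers at most 1.44 CPM in any pool. That of 5 stromal markers was higher, at 20.2 to 29.0 CPM in Ishikawa and 13.1 to 16.9 CPM in T-47D. Of these 5, 1 reached a mean of 10 CPM in Ishikawa and 0 in T-47D. The libraries shared 5 kept barcodes, 0.108% of the cells of either line.

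Levels below are CPM of summed UMIs with exact Poisson 95% intervals, and ratios between pools carry exact 95% binomial intervals. Both cover counting error only, since 1 culture per time point gives no replicate error and permits no test. A change was called when the log2 ratio of CPM, with 1 CPM added to both pools, reached 1.5-fold for a gene whose level averaged 10 CPM or more across the pools of its line. Each later time was set against the same 0 h pool, so the 3 changes of a gene in a line are not independent of one another.

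NRIP1, the corepressor, rose within 2 h in both lines, whereas ESR1 rose by 8 h in T-47D and was lower at 4 and 8 h in Ishikawa. FOXA1 and GATA3 were lower at 2 h in T-47D by less than the called fold. In Ishikawa FOXA1 was under the minimum for a called change and GATA3 was at or near 0. The p160 coactivators and NCOR1 had no called change. By the interval of the ratio, NCOA3 was lower at each later time in T-47D and at 2 h in Ishikawa. NCOA2 was lower at 2 and 8 h in Ishikawa, and NCOR1 at 4 h in T-47D. Of the 7 members past the minimum in Ishikawa, the numbers at least 1.5-fold higher after 2, 4 and 8 h were 1, 0 and 0, against 0.786%, 0.634% and 0.812% of the 7885 genes tested, and 0 were lower at any of these times, against 0.659%, 0.621% and 0.469%. In T-47D all 9 members passed the minimum. There 1, 0 and 2 were higher, against 1.22%, 1.33% and 2.34% of 7440 genes, and 0 were lower, against 0.417%, 0.363% and 0.726%. The median log2 change of the members past the minimum was -0.0016, -0.11 and -0.08 in Ishikawa after 2, 4 and 8 h, where it was -0.01, -0.01 and 0.00 over all genes tested. In T-47D it was -0.02, -0.12 and -0.02, beside 0.01, -0.01 and 0.01 over all genes.

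**Figure D1:**
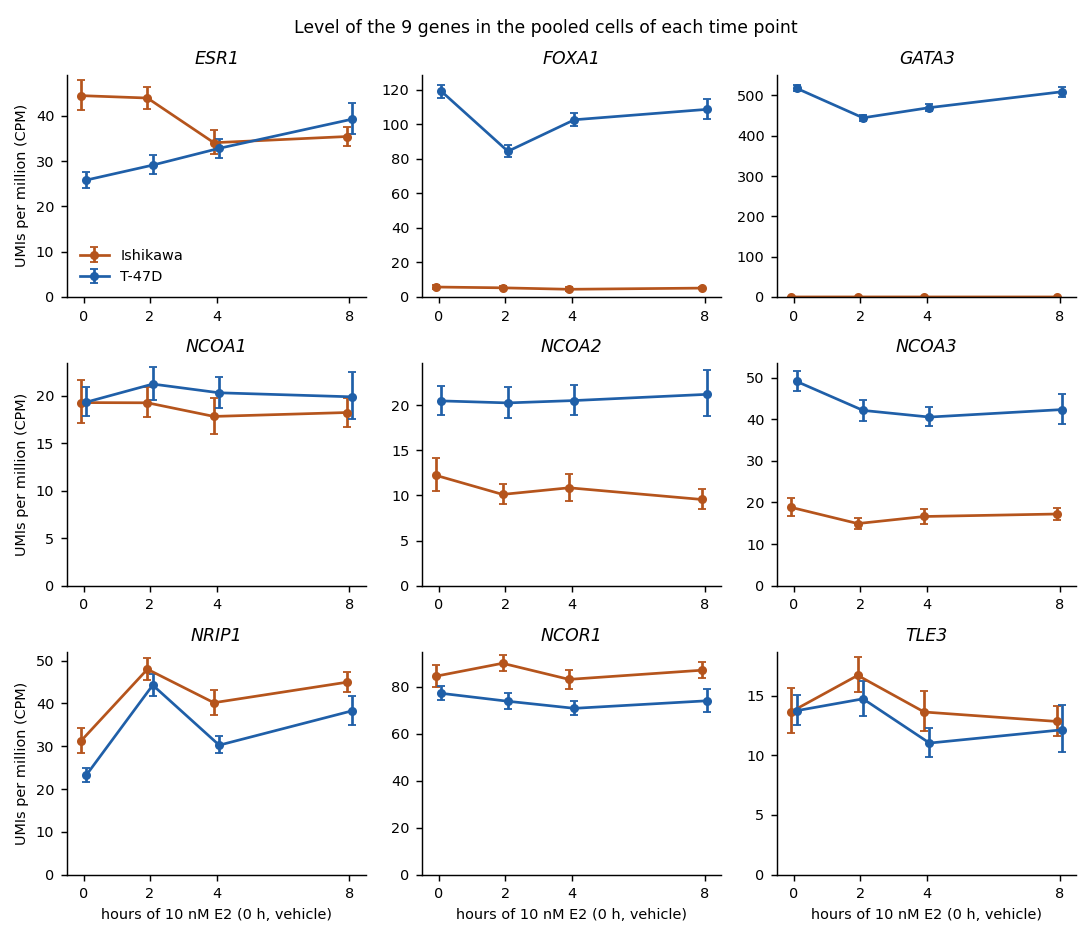
Level of each of the 9 genes in CPM of summed UMIs (vertical axes, starting at 0) against hours of E2 (horizontal axes), for Ishikawa (orange) and T-47D (blue); points are single pools and bars are exact Poisson 95% intervals of counting error. The NRIP1 level is highest at 2 h in both lines, at 48.0 and 44.3 CPM, with intervals that overlap those at 8 h. The ESR1 curves of the lines approach each other from 44.5 and 25.8 CPM at 0 h.

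ESR1 (ENSG00000091831, chr6:151656672-152129619 of GRCh38.p14) moved in opposite directions in the lines. In Ishikawa its level was 44.5 CPM under vehicle (681 UMIs) and 44.0, 34.1 and 35.5 CPM after 2, 4 and 8 h of E2. The 0 and 2 h pools had overlapping intervals, as had the 4 and 8 h pools, and the earlier pair lay above the later pair without overlap. Against 0 h the 2 h ratio was 0.988 (0.900 to 1.09), the 4 h ratio 0.766 (0.687 to 0.854) and the 8 h ratio 0.797 (0.724 to 0.878). The log2 changes of -0.02, -0.37 and -0.32 did not reach the called fold. When every called Ishikawa cell was used the 2 h change was -0.24, so that among those cells the 2 h level was also lower.

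In T-47D the ESR1 level was 25.8 CPM under vehicle (857 UMIs) and 29.1, 32.9 and 39.3 CPM (508 UMIs) with E2. The level was higher at each later time, and the interval at 0 h, 24.1 to 27.6 CPM, did not overlap those at 4 and 8 h. The ratio to 0 h was 1.13 (1.02 to 1.245), 1.27 (1.16 to 1.40) and 1.52 (1.36 to 1.70). The 8 h change of 0.59 on the log2 scale lay just past the called fold and fell under it with TMM scaling, median-of-ratios scaling, totals free of reporter and mitochondrial UMIs or 5 CPM added. The share of T-47D cells with a UMI of TOP2A or MKI67, genes expressed in dividing cells, was also higher at 8 h than at 0 h, at 41.6% against 32.6%. In T-47D cells without a UMI of either the ESR1 changes were 0.16, 0.40 and 0.59, beside 0.17, 0.34 and 0.59 in all cells.

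Over the 8 pools the order of ESR1 levels ran from Ishikawa 0 and 2 h through T-47D 8 h, Ishikawa 8 and 4 h and T-47D 4 and 2 h down to T-47D 0 h. The intervals of the levels overlapped in each neighbouring pair, but within T-47D the ratios of neighbours had intervals that excluded 1, 1.13 (1.02 to 1.245) for 2 h over 0 h and 1.13 (1.02 to 1.24) for 4 h over 2 h. The neighbours within Ishikawa, 0 and 2 h and then 4 and 8 h, had ratios whose intervals included 1. At 8 h the intervals of the lines also overlapped, with 33.4 to 37.6 CPM for Ishikawa and 36.0 to 42.9 CPM for T-47D.

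Of 1999 genes with a mean of at least 50 CPM in both lines, those whose log2 level, less the mean of its line, was most like that of ESR1 over the 8 pools were FUNDC2 and PPHLN1 with a Pearson r of 0.98, TIMM17B with 0.95, and ARL6IP4 and PCLAF with 0.94. These are descriptions over 8 pools from 2 libraries, 4 pools of each sharing a library. The changes themselves were far smaller than those of ESR1 in the genes with the highest r: the 8 h log2 changes in Ishikawa and T-47D were -0.07 and 0.16 for FUNDC2 and -0.02 and 0.05 for PPHLN1. For PCLAF, which encodes a factor that binds the replication clamp PCNA, they were -0.23 and 0.40. For the other 8 members r with ESR1 ranged from -0.36 for NCOA3 to 0.47 for NCOA1.

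NRIP1 (ENSG00000180530, chr21:14961235-15065936) rose in both lines with the same order of time points. In Ishikawa the level was 31.2 CPM under vehicle (478 UMIs), then 48.0 CPM at 2 h (1434 UMIs), followed by 40.2 and 45.0 CPM. In T-47D it was 23.2 CPM under vehicle (771 UMIs), then 44.3 CPM at 2 h (1175 UMIs), followed by 30.3 and 38.3 CPM. In each line the 0 h interval lay below all 3 later ones, and the 4 h pool lay below the 2 h pool without overlap. The 2 and 8 h intervals overlapped in Ishikawa, at 45.6 to 50.6 and 42.6 to 47.4 CPM. In T-47D they met only at their edges, at 41.80 to 46.9 and 35.0 to 41.82 CPM. No ratio of 8 h over 2 h was taken, so the order of these times rests on the levels alone. The ratio to 0 h was 1.54 (1.39 to 1.71), 1.29 (1.15 to 1.44) and 1.44 (1.30 to 1.60) in Ishikawa. In T-47D it was 1.91 (1.74 to 2.09), 1.30 (1.18 to 1.43) and 1.65 (1.47 to 1.85). The 4 h level was lower than the 2 h level by 16.3% in Ishikawa and by 31.7% in T-47D, and the 8 h level was above the 4 h level by 11.9% and 26.6%, each with an interval of the ratio that excluded 1.

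The NRIP1 rise at 2 h in Ishikawa, 0.60 on the log2 scale, was close to the called fold and fell under it, at 0.55, with 5 CPM added, whereas in Ishikawa cells under 1% of UMIs from GFP the changes were 0.81, 0.66 and 0.67, all past the fold. The 8 h change in Ishikawa, 0.51 as reported, was also past it in thinned cells, at 0.64. The 4 h change there, 0.35 as reported, was smaller in cells without a TOP2A or MKI67 UMI, at 0.19. The T-47D changes, 0.90 for the 2 h cells and 0.70 for the 8 h cells, stayed past the fold under all 10 alternative settings, with lowest values of 0.80 and 0.62. Cells that carried a TOP2A or MKI67 UMI had less NRIP1 in Ishikawa, with ratios of 0.806 (0.665 to 0.980), 0.770 (0.689 to 0.861) and 0.775 (0.694 to 0.867) for the 0, 2 and 8 h cells, but not at 4 h, where the ratio was 0.957 (0.812 to 1.13). In T-47D the same ratio lay between 1.06 and 1.13, and at 2 h alone its interval, 1.01 to 1.28, excluded 1.

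Promoter windows from RefSeq (GRCh38.p14, from 250 bases before a transcript start to 50 after it) were searched. The reason was that NRIP1 had a called rise in both lines and ESR1 in T-47D only. There were 25 windows for 8 of the 9 members. The palindrome of the full estrogen response element, GGTCA and TGACC with 3 bases of any kind between them, was in 0 of these 25 windows and in 0.0570% of all 35116 windows. A single arm, GGTCA or on the other strand TGACC, was in 5 of the 25, beside 37.4% of all windows, 13125 in number. NRIP1 and ESR1 each had 1 such window, and their other windows held no arm. The remaining windows with an arm were windows of GATA3, which was lower at 2 and 4 h in T-47D. An arm was therefore not particular to the genes with a called rise. The forkhead motif TGTTTAC, searched on both strands, was in 0 of the 25, beside 3.42% of all windows. The GATA motif AGATAA was in 2 of 25, beside 10.3% of all. The arms are part of the palindrome, so those searches overlap. A match is given as a description and is not a binding site, and a window without a match says nothing of binding elsewhere. The stretches of the second windows of NRIP1 and ESR1 that hold an arm are shown 5′ to 3′ with the arm in capitals. The NRIP1 stretch is chr21:15065116-15065220 on the minus strand and its arm begins 170 bases before a transcript start, and the ESR1 stretch is chr6:151690408-151690526 on the plus strand with the arm 29 bases before a start. Both lie inside the annotated span of their gene, at a start downstream of the outermost.
NRIP1: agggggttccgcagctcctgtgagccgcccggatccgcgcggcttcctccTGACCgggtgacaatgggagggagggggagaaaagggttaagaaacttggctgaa
ESR1: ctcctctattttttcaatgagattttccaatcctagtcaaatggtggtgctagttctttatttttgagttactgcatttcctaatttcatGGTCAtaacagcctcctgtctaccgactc

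**Figure D2:**
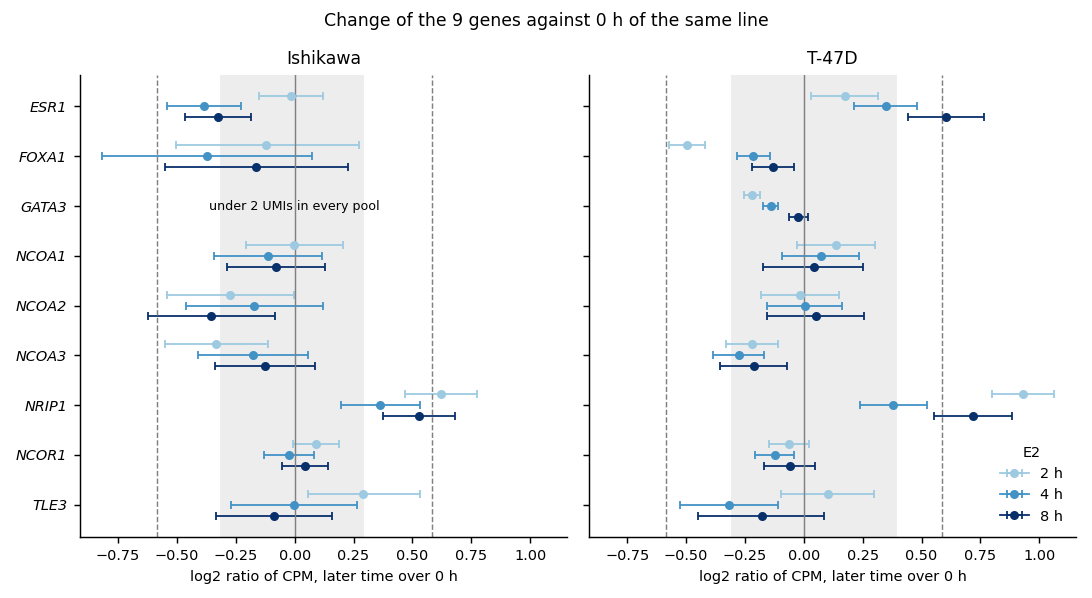
Log2 ratio of CPM against 0 h of the same line (horizontal axes) for each gene (vertical axis) at 2, 4 and 8 h of E2 (light to dark blue), with exact 95% binomial intervals of counting error; dashed lines mark 1.5-fold and the grey band the widest 5th to 95th percentile range of all genes tested over the 3 times. NRIP1 lies to the right of 0 at every time in both lines, and ESR1 lies left of 0 at 4 and 8 h in Ishikawa and right of 0 at every time in T-47D.

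FOXA1 (ENSG00000129514, chr14:37589552-37595249), the forkhead pioneer factor, was lowest at 2 h in T-47D and closer to its starting level later. The level was 119 CPM under vehicle (3951 UMIs), 84.4 CPM at 2 h (2238 UMIs), and then 103 and 109 CPM (3043 and 1405 UMIs). The 2 h pool lay below the other 3 pools without overlap and the 0 h pool above them. The ratios to 0 h were 0.708 (0.672 to 0.746), 0.862 (0.822 to 0.904) and 0.913 (0.858 to 0.970). The 2 h log2 change of -0.49 lay between -0.52 and -0.47 under the alternative settings, short of the called fold in each. From 2 to 4 h FOXA1 was higher by 21.6%, with a ratio of 1.22 (1.15 to 1.28).

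In Ishikawa FOXA1 had 88, 158, 86 and 159 UMIs at 0, 2, 4 and 8 h, or 5.75, 5.29, 4.44 and 5.13 CPM. All 4 intervals overlapped, and the gene was under the minimum for a called change.

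GATA3 (ENSG00000107485, chr10:8045333-8075198), the luminal zinc finger factor, was abundant in T-47D, with 518 CPM under vehicle (17175 UMIs) and 444, 469.7 and 509 CPM after E2. The 2 h pool was the lowest and the 0 and 8 h pools overlapped, the same order of time points as for FOXA1. The ratios to 0 h were 0.858 (0.838 to 0.879), 0.907 (0.887 to 0.928) and 0.984 (0.956 to 1.01). In Ishikawa GATA3 had 1 UMI in all, in the 2 h pool, and 0 in the others. A count of 0 among the 15305038 UMIs of the Ishikawa 0 h pool allows up to 0.196 CPM, at 3 counts, so GATA3 was at least 2641-fold higher in T-47D at 0 h against this floor, and the exact 95% interval of the ratio begins lower, at 2148. No thinned Ishikawa cell held a GATA3 UMI, which among the 676 cells at 0 h allows, at 3 counts, up to 0.444% of cells with a UMI after thinning and sets no limit on cells expressing the gene.

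The p160 coactivators showed no called change. NCOA1 (ENSG00000084676, chr2:24491254-24770702) was at 19.3, 19.3, 17.8 and 18.2 CPM at 0, 2, 4 and 8 h in Ishikawa, and at 19.3, 21.2, 20.3 and 19.9 CPM in T-47D. All intervals overlapped within each line, and the widest ratio to 0 h was 1.10 (0.979 to 1.23), at 2 h in T-47D. NCOA2 was at 12.2, 10.1, 10.8 and 9.55 CPM in Ishikawa and at 20.5, 20.2, 20.5 and 21.2 CPM in T-47D. Its ratio in Ishikawa was 0.828 (0.687 to 0.999) at 2 h and 0.782 (0.649 to 0.944) at 8 h, the latter from pools of 187 and 296 UMIs, and in T-47D all 3 ratios had intervals that included 1.

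NCOA3 (ENSG00000124151, chr20:47501887-47656872), the coactivator known as amplified in breast cancer, was lower after E2 in T-47D. Its level there was 49.1 CPM under vehicle (1628 UMIs) and 42.1, 40.5 and 42.3 CPM later. The 0 h pool lay above the 3 later pools without overlap, and these overlapped one another. The ratio was 0.858 (0.794 to 0.927), 0.825 (0.766 to 0.890) and 0.862 (0.781 to 0.951). In T-47D cells without a TOP2A or MKI67 UMI the 8 h log2 change was -0.06 against -0.21 in all cells, and at 8 h the cells with such a UMI had 0.804 (0.674 to 0.957) times the NCOA3 of the others.

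In Ishikawa NCOA3 was at 18.8, 14.9, 16.6 and 17.2 CPM. Only the 2 h ratio of 0.794 (0.683 to 0.924) had an interval that excluded 1. Ishikawa cells with a TOP2A or MKI67 UMI had 0.716 (0.587 to 0.876) times the NCOA3 of other cells at 2 h and 0.687 (0.575 to 0.823) times at 8 h, and the 0 and 4 h ratios had intervals that included 1.

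NCOR1 (ENSG00000141027, chr17:16029157-16215534), the scaffold that carries HDAC3 to unliganded nuclear receptors, had no called change. It was at 84.4, 89.9, 83.0 and 87.0 CPM in Ishikawa and at 77.1, 73.7, 70.7 and 73.9 CPM in T-47D. The largest departure from 0 h was at 4 h in T-47D, with a ratio of 0.917 (0.865 to 0.972). In Ishikawa the sign of its small changes depended on the cells used, being -0.10, -0.18 and -0.12 with every called cell and 0.20, 0.12 and 0.20 in cells thinned to equal depth.

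TLE3 (ENSG00000140332, chr15:70047790-70097917), a Groucho-family corepressor that FOXA1 is known to recruit, was at 13.7, 16.7, 13.6 and 12.8 CPM in Ishikawa and at 13.7, 14.7, 11.0 and 12.1 CPM in T-47D. The 2 h ratio in Ishikawa was 1.22 (1.04 to 1.44), and the 4 h ratio in T-47D was 0.802 (0.694 to 0.927). From 2 to 4 h TLE3 was lower in both lines, with ratios of 0.816 (0.700 to 0.949) and 0.748 (0.644 to 0.869).

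By the interval of the ratio alone, which is a looser call than the fold, members moved in both directions. For the 2 h cells of Ishikawa, 2 members lay above 1 and 2 below, against 13.2% and 16.8% of the genes tested. For the 4 h cells these numbers were 1 and 1, against 14.7% and 16.2%, and for the 8 h cells 1 and 2, against 19.7% and 17.7%. In T-47D 2 members lay above and 3 below for the 2 h cells, against 16.8% and 13.5%. For the 4 h cells the numbers were 2 and 5, against 18.3% and 20.1%, and for the 8 h cells 2 and 2, against 20.8% and 17.8%. The 5 members below 1 at 4 h in T-47D were FOXA1, GATA3, NCOA3, NCOR1 and TLE3.

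At 0 h the lines differed most in the cooperating factors. Line and library cannot be told apart here, since each line was 1 library. FOXA1 was 20.7-fold (16.8 to 25.9) higher in T-47D. NCOA3 was 2.61-fold (2.30 to 2.97) and NCOA2 1.68-fold (1.42 to 1.98) higher in T-47D. With GATA3, 4 of the 9 members were at least 1.5-fold higher in T-47D, against 23.7% of 8023 genes, and 1 was at least 1.5-fold higher in Ishikawa, against 33%. That member was ESR1, 1.72-fold (1.56 to 1.91) higher in Ishikawa, a ratio that was 1.45 with TMM factors over the 8 pools and so under the called fold.

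NRIP1 at 0 h was 1.34-fold (1.196 to 1.51) higher in Ishikawa, or 1.13-fold with TMM. NCOA1 and TLE3 had ratios of 1.00 (0.872 to 1.15) and 1.01 (0.853 to 1.19), T-47D over Ishikawa, which became 1.19 and 1.19 with TMM. The NCOR1 ratio of 0.913 (0.854 to 0.977) turned to 1.08 with TMM.

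Shares of cells with at least 1 UMI were taken after thinning, to 12539 UMIs for an Ishikawa cell and to 14495 for a T-47D cell, with shallower cells left out (100, 175, 57 and 129 Ishikawa cells and 194, 125, 110 and 34 T-47D cells, in order of time). Each library held 1 line, so a cell type lacking the gene was not present in the same library to give a background. ESR1 was detected in 37.1%, 39.2%, 31.6% and 34.5% of Ishikawa cells at 0, 2, 4 and 8 h (unthinned 48.5%, 50.3%, 45.1% and 46.8%). In T-47D the shares were 28.2%, 29.3%, 33.6% and 38.0% (unthinned 38.2%, 38.8%, 43.3% and 49.9%). The exact binomial intervals of the T-47D shares at 0 and 8 h, 25.8% to 30.7% and 33.8% to 42.3%, did not overlap. In Ishikawa the 0 h interval, 33.5% to 40.9%, overlapped those at 4 h, 28.5% to 34.9%, and at 8 h, 32.0% to 37.1%.

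NRIP1 was detected in 28.6%, 39.2%, 36.0% and 40.2% of Ishikawa cells (unthinned 39.2%, 50.6%, 49.2% and 51.9%) and in 26.4%, 39.6%, 33.6% and 39.1% of T-47D cells (unthinned 36.3%, 51.6%, 43.3% and 50.8%). The share was lowest at 0 h in both lines. Cells with 3 or more NRIP1 UMIs made up 1.92% of the Ishikawa cells at 0 h and 4.44% of those at 2 h. The T-47D values were 0.826% and 4.07%.

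FOXA1 was detected in 79.0%, 66.8%, 74.0% and 76.5% of T-47D cells (unthinned 85.2%, 76.2%, 84.1% and 86.4%), lowest at 2 h, and in 5.47% to 6.13% of Ishikawa cells. The unthinned 8 h share of T-47D, above the 0 h share, went against the CPM, and no order was read from it. Cells with 3 or more FOXA1 UMIs went from 25.2% at 0 h to 14.1% at 2 h in T-47D and were back at 21.00% by 8 h. GATA3 was detected in 98.7% to 99.2% of T-47D cells at every time, so that its lower level at 2 h lay in the number of UMIs per cell, 7.50 on average at 0 h and 6.51 at 2 h. NCOA3 was detected in 47.7%, 44.9%, 40.2% and 44.9% of T-47D cells (unthinned 59.1%, 54.9%, 52.7% and 58.4%) and in 20.7%, 17.2%, 17.8% and 18.3% of Ishikawa cells (unthinned 28.6%, 24.5%, 27.8% and 28.1%).

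**Figure D3:**
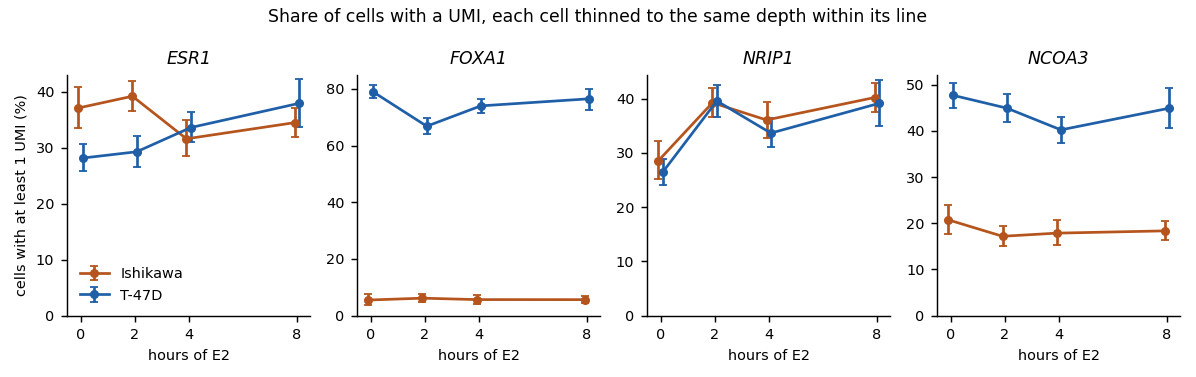
Percent of cells with at least 1 UMI of ESR1, FOXA1, NRIP1 and NCOA3 (vertical axes, starting at 0) against hours of E2, in Ishikawa (orange) and T-47D (blue) cells thinned to 12539 and 14495 UMIs; bars are exact binomial 95% intervals. The NRIP1 share rises from 28.6% and 26.4% at 0 h to 39.2% and 39.6% at 2 h, and the FOXA1 share of T-47D is lowest at 2 h, at 66.8%.

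Variation between cells was compared with the 200 genes nearest in mean UMIs per thinned cell. At 0 h the coefficient of variation of ESR1 was 1.61 in Ishikawa and 1.80 in T-47D, above that of 90.5% and 89.5% of such genes. At 8 h ESR1 stood above 77.5% and 91.5% of such genes. NRIP1 stood above 85% and 82.5% of them at 0 h and above 91% and 96.5% at 8 h. TLE3 was as high at 0 h, at 84% and 87.5%, and stood above 37% and 84.5% at 8 h. NCOR1, at the other end, stood above 42% in Ishikawa and 18% in T-47D at 0 h. For GATA3 and FOXA1 in T-47D the values at 0 h were 70% and 81%.

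The relation of receptor transcript to estrogen response was described with 21 known estrogen targets, none of them a member, summed in thinned cells with 0, 1 or at least 2 ESR1 UMIs. In T-47D the summed level at 0 h was 1039, 1119 and 1079 CPM in these 3 groups of cells. The 2 h cells had 2104, 2397 and 2766 CPM, the 4 h cells 2136, 2359.8 and 2672 CPM, and the 8 h cells 2366, 2679.9 and 3159.9 CPM. After E2 the level was higher with each step in ESR1 UMIs and no intervals overlapped, whereas at 0 h the groups with 0 and with at least 2 UMIs overlapped. The ratio of cells with at least 2 UMIs to cells with 0 was 1.04 (0.981 to 1.10), 1.31 (1.27 to 1.36), 1.251 (1.21 to 1.29) and 1.34 (1.28 to 1.39) in order of time, from 85, 81, 122 and 61 cells with at least 2 UMIs.

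The median number of target UMIs per T-47D cell at 8 h was 34 with 0 ESR1 UMIs (quartiles 25 and 43) and 45 with at least 2 (quartiles 34 and 53), so the groups of cells overlapped widely. Of the 15 targets with at least 50 UMIs in these cells at 8 h, 13 had a ratio above 1, 11 with an interval above 1 and 0 with an interval below 1. Of 15 such targets at 0 h, 9 had a ratio above 1, 2 with an interval above 1 and 1 below. Of 16 at 2 h, 16 had a ratio above 1, 9 with an interval above 1, and of 16 at 4 h, 14 had a ratio above 1, 11 with an interval above 1 and 1 below, TFF1 at 0.403 (0.222 to 0.678), named after its value was seen. The share of all genes that differed between these groups of cells was not counted in either line. Such counts of targets therefore do not show that the targets differed more often than other genes. Among targets named by the rule on list genes, the 8 h ratio was 2.26 (1.70 to 2.98) for GREB1, 1.56 (1.07 to 2.24) for RARA, 1.24 (1.14 to 1.34) for XBP1 and 1.16 (1.07 to 1.255) for FKBP4. In cells with no TOP2A or MKI67 UMI the ratio over the whole list was 1.26 for the 2 h cells and 1.24 for the 8 h cells. Median mitochondrial share was 10.2% and 10.6% in T-47D cells with 0 and with at least 2 ESR1 UMIs at 8 h, and their median depths before thinning were 22611.5 and 24247 UMIs. In T-47D cells at or under the median mitochondrial share the 8 h ratio was 1.41, and the part of depth before thinning was not tested.

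In Ishikawa the targets were lower in sum. With 0, 1 and at least 2 ESR1 UMIs the level was 422, 429.6 and 399 CPM under vehicle, and the 2 h cells had 501, 547 and 572 CPM, the 4 h cells 518, 557 and 603 CPM, and the 8 h cells 561, 591 and 621 CPM. The ratio of at least 2 to 0 UMIs was 0.945 (0.845 to 1.05) under vehicle and 1.14 (1.07 to 1.22), 1.16 (1.06 to 1.28) and 1.11 (1.03 to 1.18) with E2. XBP1 and FKBP4 made up 115 and 203 CPM of the 422 CPM in cells with 0 ESR1 UMIs under vehicle, and without these genes the ratio was 0.811, 1.22, 1.40 and 1.16 in order of time, where T-47D without them had 1.15, 1.41, 1.34 and 1.54. Of 11 targets with at least 50 UMIs in Ishikawa at 8 h, 7 had a ratio above 1, 2 with an interval above 1 and 1 below, AREG at 0.256 (0.109 to 0.513), named after its value was seen. The median share of reporter UMIs at 0 h was 0.838% in cells without ESR1 UMIs and 0.395% in those with at least 2, and at 8 h 0.572% and 0.423%.

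Cells split by NRIP1 in the same way gave T-47D ratios of 1.09 (1.03 to 1.16) under vehicle and 1.26 (1.23 to 1.30), 1.14 (1.11 to 1.18) and 1.28 (1.23 to 1.34) with E2. Cells split by FOXA1 gave 1.11 (1.07 to 1.15), 1.05 (1.02 to 1.08), 1.08 (1.05 to 1.10) and 1.12 (1.08 to 1.16), about equal with and without E2. Cells split by NCOR1 gave 0.999 (0.965 to 1.03), 1.00 (0.975 to 1.03), 1.01 (0.982 to 1.03) and 1.05 (1.02 to 1.09). For NCOA1 and NCOA3 the ratios after E2 lay between 0.916 and 1.04, and of these only the 4 h ratio of NCOA1, 0.916 (0.864 to 0.971), had an interval without 1. Under vehicle NCOA3 gave 1.06 (1.02 to 1.10) and NCOA1 0.963 (0.888 to 1.04). TLE3 gave 1.19 (1.10 to 1.29) under vehicle and 1.15 (1.07 to 1.23) at 4 h, from 34 and 23 cells with at least 2 UMIs, but 0.979 (0.913 to 1.05) at 2 h. NCOA2 gave 1.17 (1.09 to 1.24) at 8 h, from 23 cells. At 0, 2 and 4 h NCOA2 gave 1.01, 0.965 and 1.04, each with an interval that included 1. In Ishikawa cells split by NRIP1 gave 1.14 (1.01 to 1.29) under vehicle and 1.14 (1.07 to 1.21), 1.18 (1.08 to 1.29) and 1.09 (1.03 to 1.16) with E2, and cells split by NCOR1 gave 1.04 (0.959 to 1.13) under vehicle and 1.09 (1.03 to 1.14), 1.099 (1.03 to 1.17) and 1.08 (1.02 to 1.13) with E2. These ratios with E2 had intervals that overlapped those of ESR1, so that the Ishikawa relation was not shown to be particular to ESR1. In T-47D the NRIP1 and ESR1 intervals overlapped at 2 and 8 h but not at 4 h. These intervals cover the counting of UMIs only and leave out the spread between cells. The T-47D relation was therefore also not shown to be particular to ESR1, at 4 h as at 2 and 8 h. The cells of 1 time point share a culture, so these ratios describe those cultures.

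**Figure D4:**
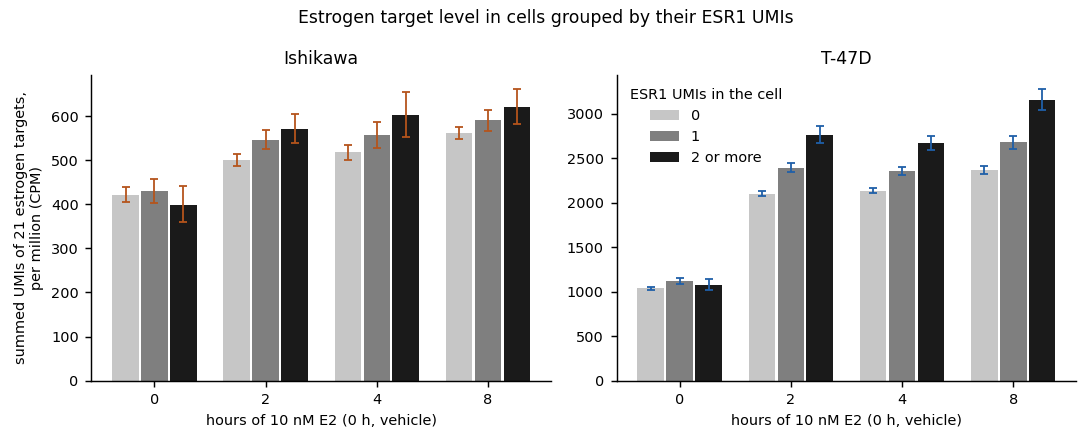
Summed level of 21 estrogen targets in CPM (vertical axes, starting at 0 and differing in scale between the lines) at each time point, for cells with 0 (light grey), 1 (grey) or at least 2 (black) ESR1 UMIs after thinning; bars carry Poisson 95% intervals. In T-47D the 3 groups lie at 1039, 1119 and 1079 CPM at 0 h and spread to 2366, 2679.9 and 3159.9 CPM at 8 h.

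The wider machinery was followed in 4 lists of 93 genes, of which 66 reached the minimum in Ishikawa and 68 in T-47D. The lists were chosen with earlier results of these data known, so their counts are no independent comparison with all genes. At any later time 7 list genes were at least 1.5-fold higher in T-47D, against 2.67% of genes, and 0 were lower, against 0.981%. In Ishikawa 3 were higher, against 1.15%, and 0 were lower, against 1.29%. GREB1, RARA, XBP1 and FKBP4 are also in the list of targets, and without list genes of that kind 2 were higher in Ishikawa cells and 3 in T-47D cells.

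Among 30 coactivators, 23 past the minimum in Ishikawa and 22 in T-47D, 1 changed in each line. GREB1, an estrogen target that binds the receptor, was at 10.4 CPM under vehicle and 31.7, 37.8 and 47.3 CPM with E2 in T-47D, changes of 1.52, 1.77 and 2.08 on the log2 scale. In Ishikawa GREB1 was under the minimum, with 18, 74, 59 and 121 UMIs. NCOA4, known also as the receptor for ferritin in autophagy, was at 42.5, 58.8, 72.9 and 66.1 CPM in Ishikawa, changes of 0.46, 0.77 and 0.63, and stayed between 60.8 and 63.5 CPM in T-47D. The median log2 change of the coactivators at 8 h was 0.09 in Ishikawa and 0.02 in T-47D.

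Among 33 corepressors, 26 past the minimum in each line, 1 changed in Ishikawa and 0 in T-47D. SIN3B, a scaffold of histone deacetylase complexes, was at 22.7, 32.4, 39.3 and 36.3 CPM in Ishikawa, changes of 0.49, 0.76 and 0.65. In T-47D its changes were 0.23, 0.26 and 0.31, short of the called fold. The median log2 change of the corepressors at 8 h was 0.05 in Ishikawa and -0.05 in T-47D.

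Cooperating transcription factors held most of the changes in T-47D, where 5 of the 9 past the minimum, of 17 listed, were at least 1.5-fold higher at some time. RUNX1 went from 6.90 CPM to 30.8, 17.4 and 22.5 CPM, changes of 2.01, 1.22 and 1.57. RARA, a retinoic acid receptor, changed by 1.41, 0.90 and 1.09, and XBP1, a regulator of the unfolded protein response, by 1.24, 1.01 and 1.04. TFAP2C changed by 0.66, 0.22 and 0.58, and GRHL2 by 0.54, 0.41 and 0.67. For RUNX1, RARA, XBP1 and TFAP2C the level was highest at 2 h, then at 8, 4 and 0 h, the order of time points that NRIP1 had, whereas GRHL2 was highest at 8 h. TFAP2A was the lowest list gene past the minimum in T-47D at 8 h, at 110 CPM at 0 h and 76.2, 82.4 and 85.4 CPM later, changes of -0.53, -0.41 and -0.36 that were short of the called fold.

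In Ishikawa 6 cooperating factors passed the minimum. RARA was at 8.49, 13.8, 10.6 and 11.6 CPM, a change of 0.64 at 2 h. TRPS1, a GATA-type repressor, was the lowest list gene past the minimum at 8 h, at 21.2, 16.0, 14.5 and 18.0 CPM, changes of -0.38, -0.52 and -0.22 that were short of the called fold. Of 13 receptors and chaperones, 11 passed the minimum in each line. FKBP4, a cochaperone of steroid receptors, rose in T-47D from 311 CPM to 504, 623 and 737 CPM, changes of 0.70, 1.00 and 1.24. None of the 11 reached the called fold in Ishikawa, where FKBP4 was at 199.7, 238, 244 and 274 CPM.

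**Figure D5:**
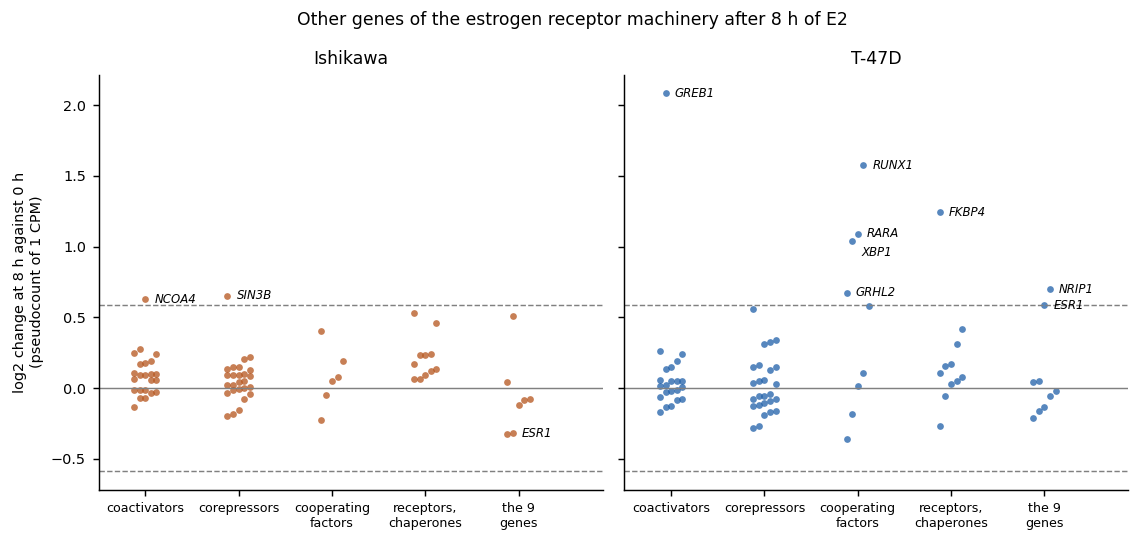
Log2 change at 8 h against 0 h, with 1 CPM added (vertical axis), of every list gene past the minimum and of the members past it (rightmost column), in Ishikawa (left) and T-47D (right); dashed lines mark 1.5-fold, and genes beyond them and ESR1 are named. GREB1, at 2.08, lies highest in T-47D, and SIN3B, at 0.65, highest in Ishikawa.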

How the data were processed

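Expression libraries of Ishikawa and T-47D cells and the matching MULTI-seq tag libraries, 4 libraries in all, were in the series. The deposited matrices hold UMI counts per gene and cell barcode, which the authors made with Cell Ranger 3.1.0 (submitters' processing notes) on hg38, and the authors also deposited the time point call of each cell. Cells called to a single time point were kept within limits the study states, 8500 to 35000 UMIs, 2700 to 6000 genes and at most 7% mitochondrial UMIs in Ishikawa and 7500 to 40000 UMIs, 1500 to 6000 genes and at most 20% in T-47D. Barcodes called as tag doublets, 1906 in Ishikawa and 1442 in T-47D, and those with no call, 4002 and 12120, were left out, and no further doublet caller was run. The tag sequence list was not used.

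Kept cells were summed per line and time point into 8 pools of 12927799 to 33175309 UMIs, where 1 CPM stands for 12.9 to 33.2 UMIs. CPM was taken over all features. With 1 culture per pool no test was run. Changes were computed as log2((CPM + 1)/(CPM at 0 h + 1)) and called at 1.5-fold with a mean of at least 10 CPM. GFP and tdTomato were not counted among genes. Intervals (95%, exact Poisson, conditional binomial and Clopper-Pearson) cover counting error only, and a count of 0 was bounded at 3 counts. For shares, variation and target levels each cell was thinned without replacement to the 10th percentile of kept UMIs of its line. Genes outside the 9 were named if on 4 fixed lists and past the fold rule, if highest or lowest on the lists at 8 h, or if among the 5 genes most like ESR1 over the 8 pools; markers were used as lists. The members and lists were chosen with earlier results of these data known. From the lists, 2 genes are not reported here and were left out of the list counts and the plot. Promoter windows came from RefSeq (GRCh38.p14); reads were not examined and gene positions are those of the same table. Alternatives were TMM factors (edgeR 4.0.16), median-of-ratios factors (DESeq2 1.42.0), other totals, pseudocounts, cell limits, folds and minimums, cells weighted equally, thinned cells, Ishikawa cells under 1% GFP UMIs and cells without a TOP2A or MKI67 UMI. Python 3.11.15, numpy 2.4.6, scipy 1.17.1, pandas 2.3.3, matplotlib 3.10.9 and R 4.3.3 were used. The fold rule was tested on simulated counts with 2-fold changes in either direction and counting error only. That simulation did not test calls near 1.5-fold or differences between cultures.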

Additional observations from a re-analysis of the deposited data

Results flagged for a closer look

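ESR1 moved in opposite directions in the lines. Its log2 change against 0 h was -0.37 (Ishikawa) and 0.34 (T-47D) at 4 h, and -0.32 (Ishikawa) and 0.59 (T-47D) at 8 h. With a single culture for each pool, this difference was not tested. Each of these changes had an interval of the ratio that excluded 1, which covers counting error only. The signs were the same under every alternative setting: the Ishikawa values lay from -0.45 to -0.25 at 4 h and from -0.41 to -0.20 at 8 h, and the T-47D values from 0.30 to 0.40 and from 0.52 to 0.61.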

How the results depend on the processing

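Of 567 alternative values of single changes, 553 stayed within the counting interval of the reported value and 14 moved out of it. For the 25 changes whose interval excluded 1, 0 of 259 alternative values had the other sign. No paired analysis was possible because each line and time point was 1 culture with no replicate number, and for the same reason no replicate could be left out.

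The count of members higher at any time was 1 in Ishikawa, and 0 with 5 CPM added, with a minimum of 50 CPM or with a fold of 2. It was 2 in T-47D, 1 with TMM, with median-of-ratios factors, with totals free of reporter and mitochondrial UMIs or with 5 CPM added, and 0 with a minimum of 50 CPM or a fold of 2. The count of lower members was 0 in both lines, and the smaller of the other folds gave 2 for Ishikawa and 1 for T-47D.

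The count of list genes higher at any time was 3 in Ishikawa, 7 with no minimum, 1 with a minimum of 50 CPM, 6 with the smaller of the other folds and 0 with a fold of 2. The lower count there was 0, 1 with cells under 1% GFP or no minimum, and 3 with the smaller of the other folds. In T-47D 7 were higher, 3 with a minimum of 50 CPM or without the estrogen targets, and 11 with the smaller of the other folds. The lower count there was 0, 1 with totals free of reporter and mitochondrial UMIs, with the stricter upper UMI limit, with cells weighted equally or in non-dividing cells (no TOP2A or MKI67 UMI), and 2 with no minimum or the smaller of the other folds. The settings on cells and scaling leave the lists the same, and the cause of those differences was not tested.

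The target level in cells with at least 2 ESR1 UMIs over cells with 0 was recomputed under alternatives chosen after seeing the data. Without XBP1 and FKBP4 it was 0.811, 1.22 and 1.40 at 0, 2 and 4 h in Ishikawa and 1.15, 1.41, 1.34 and 1.54 at 0, 2, 4 and 8 h in T-47D. In non-dividing T-47D cells it was 1.26 at 2 h and 1.24 at 8 h, and in those at or under the median mitochondrial share it was 1.41 at 8 h. Without PGR no ratio left its interval.

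Without thinning, 69 of 72 shares of cells were higher, by up to 17.0 points, since the cells were then deeper. Of 27 alternative ratios between the lines, 9 moved out of the reported interval, and the NCOR1 ratio changed direction with TMM. GATA3 in Ishikawa rests on 0 to 1 UMIs per pool, too few to show changes of the size seen in T-47D. FOXA1 in Ishikawa rests on 86 to 159 UMIs per pool. Its ratios to 0 h there had intervals of 0.705 to 1.21, 0.567 to 1.05 and 0.683 to 1.17 at 2, 4 and 8 h. Each included the T-47D ratio of the same time, though at 2 h, where that ratio was 0.708, only at its edge.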
